A study of Ovis aries with 16 samples.

Results

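The loci described here are the long non-coding RNA (lncRNA) loci that were read mainly in skeletal muscle. They were chosen by their level in the deposited lncRNA table, as the rows whose mean over the 8 muscle libraries was at least 5 normalized counts and at least 4 times the mean over the 8 liver libraries, with 3 loci left out by name (LOC105604459, LOC114117239 and LOC114114830). The choice gave 43 of the 2973 lncRNA loci, of which 2318 had any read and 151 reached a muscle mean of 5. The 4 deposited tables hold 4920 transcripts in all.

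The libraries came from 8 female Suffolk sheep, each giving 1 library of vastus lateralis, a thigh muscle, and 1 of liver, taken at the tip of its left lobe. The mothers of 4 animals (910, 918, 977 and 984) were given a daily subcutaneous dose of bisphenol A (BPA), an oestrogen-like building block of plastics, between gestation days 30 and 90, at 0.5 mg per kg in corn oil. Those of the 4 control animals (902, 908, 924 and 928) received corn oil alone over the same days. Tissue was taken from all 8 offspring at an age of about 21 months. They had fasted for 48 hours and had been given 2 prostaglandin F2α injections, 11 days apart, the last of them 24 hours earlier, so every group shared the fast, the synchronized cycle and the injections of the mother. The study asked how exposure before birth relates to non-coding RNA in these adult tissues.

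A lncRNA is a transcript that codes for no known protein. Some act in the nucleus on the transcription of nearby genes, some bind proteins or microRNAs in the cytoplasm, and some are read mainly because a small RNA is cut from them. In skeletal muscle, lncRNAs of mouse and human are known that act in the growth and fusion of muscle precursor cells, and the muscle microRNAs miR-1 and miR-133 are themselves cut from longer transcripts. The libraries were made for small RNA, so each read on one of these loci is a short RNA from within the locus and not a whole lncRNA. Values are reads per locus and not per length, and they are not used to rank the loci by RNA amount.

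The labelled tissues matched the markers that could be looked up in the microRNA table. MIR133, the only one of 8 skeletal muscle markers named there, had normalized counts of 244661 to 370470 in BPA muscles and 318172 to 373488 in control muscles, against 122 to 574 in BPA livers and 115 to 717 in control livers. The summed hepatocyte markers MIR194 and MIR148A, 2 of 5 looked up, had 1372 to 1922 in BPA muscles and 1311 to 2028 in control muscles, against 40787 to 66109 in BPA livers and 45135 to 61597 in control livers. The other lists held 1 to 3 named members, and no erythroid or adipocyte marker was named. MIR150, a lymphocyte microRNA, had 1485 to 2760 in BPA muscles, 1368 to 2028 in control muscles, 231 to 493 in BPA livers and 199 to 549 in control livers. MIR221 of endothelium had 281 to 467 in BPA muscles, 296 to 390.4 in control muscles, 435 to 703 in BPA livers and 345 to 730.1 in control livers. The sum of MIR143, MIR199A and MIR21, of fibroblasts and smooth muscle, had 8728 to 22156 in BPA muscles, 16607 to 29143 in control muscles, 31099 to 59470.1 in BPA livers and 31355 to 46045 in control livers. Reads on the lncRNA table numbered 629329 to 1085241 in BPA muscles and 463009 to 579608 in control muscles, and 102095 to 284321 in BPA livers against 18344 to 45323 in control livers. In tissue pieces such as these, fewer cells of a type and less RNA per cell cannot be told apart.

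Identity of the loci was limited to what the files and RefSeq's gene table for sheep (assembly ARS-UI_Ramb_v3.0) give. The files name nearly all lncRNA rows by number alone, and none of 22 lncRNAs known from muscle that were looked up by name (H19, MALAT1, NEAT1 and LINCMD1 among them) matched a row. GTL2, the name used in sheep for MEG3, is a row of the table but not one of the 43. The RefSeq table held 22 of the 43 loci, and the other 21 carry their number only. It calls 20 of the 22 lncRNA and 2 protein-coding. One of these is LOC105603956, there named SMCO4, which codes for a small membrane protein. The other is LOC105604560, which overlaps ALPK2, a gene of the alpha-kinase family. Among the 22 loci, 11 (50%) overlapped a protein-coding gene, against 13 of 52 (25.0%) of the other rows with a muscle mean of at least 5 that the table held. Among these overlapping genes were MFN2, which fuses mitochondria, and PLOD1, a collagen hydroxylase, both at LOC105606461. SGCD, a sarcoglycan of the dystrophin-associated complex of muscle membranes, overlapped LOC105611754. LTBP3, which binds latent TGF-beta, overlapped LOC105604113, and ORC1, of the origin recognition complex, overlapped LOC105609509. LOC105606221 overlapped GNAS, the stimulatory G protein alpha subunit gene, whose locus is imprinted in mammals. It also overlapped LOC101102411, another protein-coding gene. The remaining overlapping genes, besides ALPK2, were PAX2 at LOC105604251, TMTC4 at LOC114116643 and SPOCK2 at LOC114110856. RFX4 and RIC8B overlapped LOC114114025, and LOC114111470 overlapped LOC106991980. Whether the counting used strand is not given in the sources used here, so reads of a locus and of a gene that overlaps it cannot be told apart.

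Annotated small RNA genes overlapped 3 of the 22 loci (13.6%), against 27 of 52 (51.9%) of the other rows. No microRNA gene overlapped or lay next to any of the 22 loci, while 5 of the 52 other rows overlapped one. The 22 do not include LOC105603743, which held nearly all reads of the set, so its small RNA genes are not known here. The 3 loci left out by name, LOC105604459 among them, are in neither group. A cysteine transfer RNA gene (TRNAC-GCA) overlapped LOC105603956 and another of that name overlapped LOC105602770. An snRNA gene, LOC114109759, overlapped LOC114109624. These shares describe the annotation, and the 43 loci were not tested against the other rows.

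The values that chose the loci are given as a description. Muscle means ran from 5.03 to 221372 normalized counts. They reached 100 in 7 loci, lay between 30 and 100 in 3, between 10 and 30 in 13 and between 5 and 10 in 20. Livers were nearly empty for most of the loci, with a liver mean under 1 in 25 of them and at least 5 in 7. No liver read was found for LOC105608636 and LOC114110856, 15 loci had a read in 1 to 3 livers, 19 in 4 to 7 and 7 in all 8 livers. Every muscle library lay above every liver library in 26 loci, and in the other 17 at least 1 muscle value did not. Among the 41 loci with a liver read the ratio of muscle to liver means reached 50 in 7 and lay under 8 in 13. These ratios depend on the scale, because the authors scaled each tissue separately. On a scale set over both tissues the muscle values dropped by 0.40 log2 units relative to liver, and 34 of the 43 loci still met both thresholds.

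**Figure D1:**
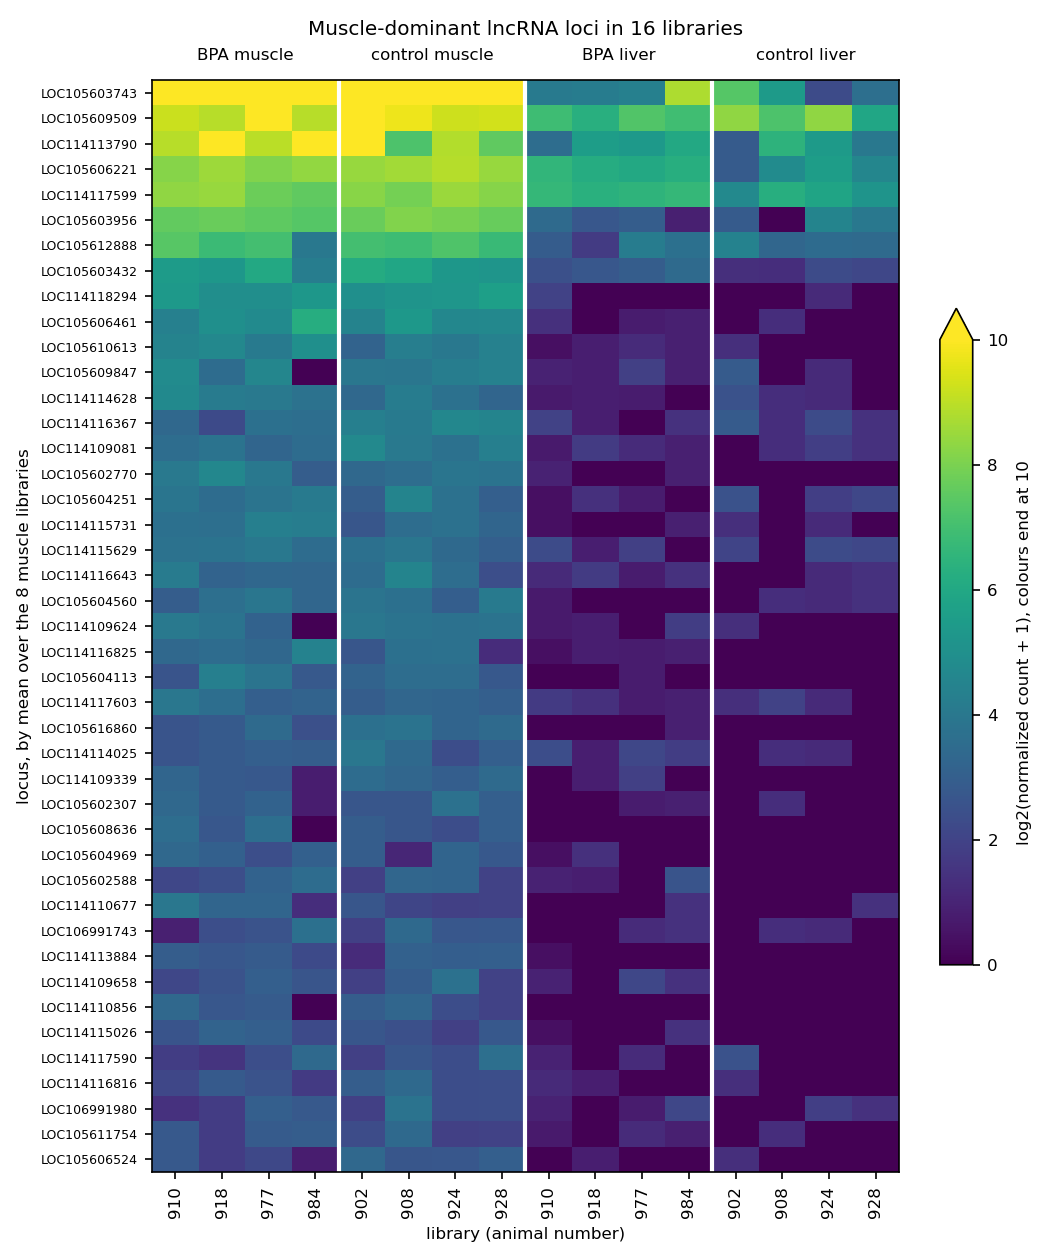
Normalized counts of the 43 loci (rows, ordered by muscle mean) in 16 libraries (columns, labelled by animal), as log2(value + 1) with colours ending at 10. The muscle columns are bright in the upper rows and most liver cells in the lower rows are at or near 0, and 4 loci are at 0 in BPA muscle 984.

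The edges of the set had no gap. LOC105606524 at 5.03, LOC105611754 at 5.12 and LOC106991980 at 5.18 had the lowest muscle means inside it, and LOC105611533 at 4.90, LOC105607560 at 4.67 and LOC105609560 at 4.65 lay just outside. By ratio, LOC114117599 at 4.04, LOC114114025 at 4.47 and LOC106991980 at 4.47 lay just inside, and LOC106991580 at 3.84, LOC105612199 at 3.58 and LOC105606921 at 3.56 just outside. LOC114117599 thus had a muscle mean of 284 but a ratio near the limit, and on the scale over both tissues its ratio was 3.0.

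No 2 of the 43 loci carried the same values, and none matched any other row, either over the 16 libraries or over the 8 muscle libraries alone. Identical rows did occur among the rarest transcripts of the table. There, 802 rows with a read shared their values with another row, and such a row held at most 17 reads over the 16 libraries, so none reached a muscle mean of 5.

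One locus, LOC105603743, held nearly all reads of the set. It had 204532, 200283, 175739 and 249299.7 normalized counts in BPA muscles 910, 918, 977 and 984, and 221335, 225742, 263996 and 230052 in control muscles 902, 908, 924 and 928. In the livers it had 15.7, 17.4, 19.6 and 439 in BPA animals and 163, 42.2, 3.88 and 11.7 in control animals. All muscle values lay within a narrow band and far above all livers, and the livers of BPA animal 984 and control animal 902 stood above the other 6. The same 2 livers also had the most MIR133, with 574 and 717 normalized counts against 115 to 164 in the other 6 livers. The part of muscle RNA in these livers was not tested. The RefSeq table does not hold this locus, so neither a function nor a neighbour can be given.

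As a share of all lncRNA reads of a library, LOC105603743 took 38.2%, 29.9%, 32.5% and 49.3% in BPA muscles 910, 918, 977 and 984. In control muscles 902, 908, 924 and 928 it took 33.0%, 35.7%, 35.6% and 34.6%. The control muscles thus lay within a band of less than 3 points that BPA muscles crossed on both sides, with 984 the highest. LOC105604459, the locus outside the set with most of the remaining reads, took 40.5% in BPA muscle 984, 52.7% to 61.6% in the other 3 BPA muscles and 57.7% to 59.0% in control muscles. Set against MIR133 reads of the same library, LOC105603743 had 80.9, 54.2, 61.9 and 128 reads per 100 MIR133 reads in BPA muscles 910, 918, 977 and 984, and 62.1 to 68.3 in control muscles. LOC105604459 had 105 to 112 in BPA muscles and 109.5 to 111 in control muscles by the same measure. BPA muscle 984 was the highest in the first of these ratios and the lowest in the second. The share of the whole set averaged 38.1 ± 8.56% in BPA muscles and 35.2 ± 1.13% in control muscles (SD, n = 4 each), a difference of 2.90 points. Without BPA muscle 984 the BPA mean was 34.1%, and the difference turned to -1.02 points. The 42 loci other than LOC105603743 together took 0.571 ± 0.131% in BPA muscles and 0.439 ± 0.156% in control muscles (SD, n = 4 each). LOC105603743 and LOC105604459 make up most of that total. With both taken out of it, the 42 loci took 6.31 ± 1.69% in BPA muscles and 6.25 ± 1.51% in control muscles, a gap far smaller than the spread.

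**Figure D2:**
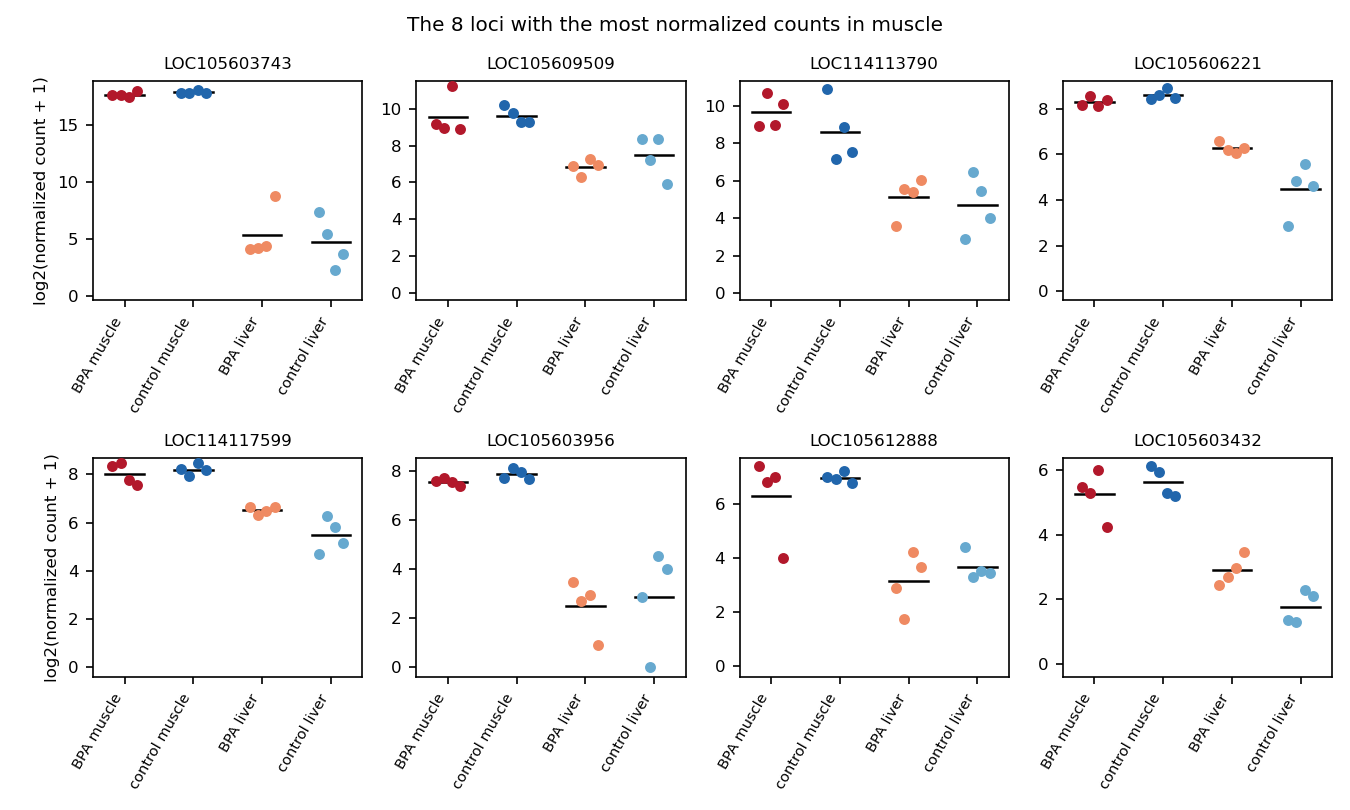
Normalized counts of the 8 loci with the highest muscle means, as log2(value + 1), in BPA muscle, control muscle, BPA liver and control liver (points, 1 per animal; bars, group means of the plotted values). BPA and control muscles overlap in all 8 panels, and BPA muscle 984 is the low point of LOC105612888 at 14.9 normalized counts.

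Next by read total came LOC105609509, the lncRNA locus that overlaps ORC1. Its normalized counts were 586, 491, 2375 and 483 in BPA muscles 910, 918, 977 and 984, and 1179, 860.4, 611 and 629.6 in control muscles 902, 908, 924 and 928. BPA muscle 977 was the highest by far, so the groups overlapped, although the other BPA muscles lay below every control. The livers had 116, 77.5, 154 and 120.6 in BPA animals and 327, 148, 323 and 60.02 in control animals. LOC114113790, which overlaps another lncRNA locus, varied most among muscles. It had 482, 1631, 498 and 1104 in BPA muscles and 1926, 145, 463 and 185 in control muscles, in the same order of animals, so both groups spanned low and high values. The spread of this locus over the 8 muscles was 83.6% of its mean, whereas counting alone would give 3.28%. A spread beyond double that of counting was seen for 10 of the 43 loci, all among the 12 with the highest means, and the median over the set was 43.9% against 29.2% from counting.

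LOC105606221, at GNAS, and LOC114117599, which lies between UCKL1, a uridine-cytidine kinase gene, and DNAJC5, a co-chaperone gene, were steadier in muscle. LOC105606221 had 290.0, 374, 276 and 331 in BPA muscles 910, 918, 977 and 984 and 347, 391, 475 and 354 in control muscles 902, 908, 924 and 928. LOC114117599 had 323, 353, 218 and 186 in BPA muscles and 302, 241, 359 and 286 in control muscles. LOC105603956 (SMCO4) had 191, 210.2, 184 and 165 in BPA muscles and 208, 277, 247 and 201 in control muscles. For each of these 3 loci the groups overlapped. SMCO4 livers had 9.95, 5.54, 6.77 and 0.843 in BPA animals and 6.26, 0, 21.98 and 15.0 in control animals.

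LOC105612888, which is not in the RefSeq table, had 170.1, 112, 128 and 14.9 in BPA muscles and 127, 119.01, 149 and 108 in control muscles. The muscle of animal 984 lay far below the other 7, which ranged from 108 to 170.1, and its value was within the range of the livers (2.37 to 17.6 in BPA and 8.73 to 20.3 in control animals). LOC105603432 had 43.4, 38.2, 63.8 and 17.9 in BPA muscles and 69.4, 60.1, 38.7 and 35.9 in control muscles, again with 984 the lowest. LOC114118294 was the steadiest of the loci between 30 and 100, with 39.98, 29.6, 29.8 and 38.0 in BPA muscles and 30.7, 34.9, 37.3 and 48.9 in control muscles. Its livers held 2.89 in BPA animal 910 and 1.29 in control animal 924, and 0 in the other 6. LOC105606461, at MFN2 and PLOD1, went the other way in animal 984, with 19.6, 30.2, 26.9 and 73.8 in BPA muscles and 21.4, 39.3, 23.5 and 24.4 in control muscles. LOC105610613, next to DPH6, a gene of diphthamide synthesis, had 21.3, 24.7, 16.3 and 30.6 in BPA muscles and 8.01, 18.6, 15.2 and 20.1 in control muscles. LOC105609847 had 27.2, 10.5, 23.4 and 0 in BPA muscles and 14.7, 14.2, 17.97 and 20.1 in control muscles.

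The 13 loci with means between 10 and 30, the last 2 above among them, rest on 91 to 177 reads each over the 8 muscles, and no liver value among them exceeded 6.26. The 20 loci with means between 5 and 10 rest on 38 to 92 muscle reads each and had liver values up to 5.06. At this depth 1 read was worth 0.616 to 0.851 normalized counts in BPA muscles and 1.09 to 1.44 in control muscles. Of the 3 loci at annotated small RNA genes, 2 fall in this low range. LOC105602770, at a cysteine transfer RNA gene, had 15.3, 23.4, 14.9 and 6.71 in BPA muscles and 9.34, 10.9, 13.8 and 12.9 in control muscles. LOC114109624, at an snRNA gene, had 15.3, 12.9, 7.80 and 0 in BPA muscles and 14.7, 13.1, 12.4 and 12.9 in control muscles.

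BPA muscle 984 was the lowest muscle library for 16 of the 43 loci (37.2%) and the highest for 5 (11.6%). Among 105 other rows with a muscle mean of at least 5 it was the lowest for 25 (23.8%) and the highest for 27 (25.7%). Reads were found in all 8 muscles for 39 loci, and the other 4, LOC105609847, LOC114109624, LOC105608636 and LOC114110856, had none in BPA muscle 984 alone. LOC105608636 had 11.1, 5.55 and 11.3 in BPA muscles 910, 918 and 977 and 4.15 to 7.19 in control muscles. LOC114110856, at SPOCK2, a proteoglycan gene, had 9.36, 5.55 and 6.38 in the same BPA muscles and 2.87 to 8.73 in control muscles. Of the 105 other rows, none was without a read in 984. The library held 677753 lncRNA reads, within the range of the other BPA muscles, so it was not the shallowest. Its library code in the labels, 97, also stood apart from the codes 77 to 79 of the other BPA muscles and 73 to 76 of the control muscles, and the part of library handling was not tested.

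**Figure D3:**
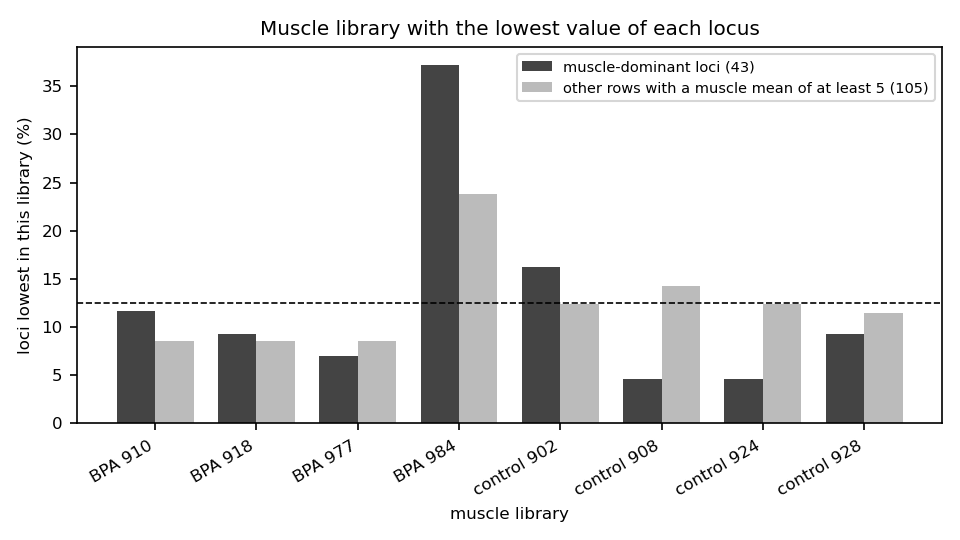
Percent of loci whose lowest muscle value fell in each muscle library, for the 43 muscle-dominant loci (dark bars) and 105 other lncRNA rows with a muscle mean of at least 5 (light bars); the dashed line marks an even share over the 8 libraries. BPA 984 is the tallest in both sets, at 37.2% and 23.8%.

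BPA was compared with control in muscle over all 151 lncRNA rows with a muscle mean of at least 5, with limma on log2(value + 1) and Benjamini-Hochberg adjustment over the table. The BPA muscles held more lncRNA reads than the control muscles, with no overlap (629329 to 1085241 against 463009 to 579608). Depth and exposure therefore cannot be told apart in muscle. The BPA muscles also held more small nucleolar RNA (snoRNA) reads, with no overlap (9886 to 15915 against 2825 to 3872 in control muscles). Exposure cannot be told apart from that difference either, and its part was not tested. None of the 43 loci passed an adjusted p of 0.05, where 8 of all 151 rows (5.3%) did, 3.97% higher and 1.32% lower. The 8 include 2 of the loci left out of the set by name, so the count of none holds only for the set as drawn. LOC114117239, which met both thresholds of the set, was higher in BPA muscle (log2 fold change 1.86 ± 0.24 SE, limma adjusted p = 4.42e-04), and LOC114114830, which did not meet them, was lower (-1.22 ± 0.23, limma adjusted p = 0.0058). Had LOC114117239 stayed in, the set would have held 1 called locus. edgeR's quasi-likelihood test on the recovered reads, with either set of size factors, and DESeq2 also called none of the 43. At an unadjusted p under 0.05 in limma there were 4 of the 43 loci (9.30%), against 26 of the 151 rows (17.2%). The fold changes leaned down, with 17 loci higher and 26 lower and a median log2 fold change of -0.17, where the median of all 151 rows was -0.02. Without BPA muscle 984, 40 of the loci still met the filter, 21 of them higher and 19 lower, and the median was 0.07, so the lean was not seen without that library.

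**Figure D4:**
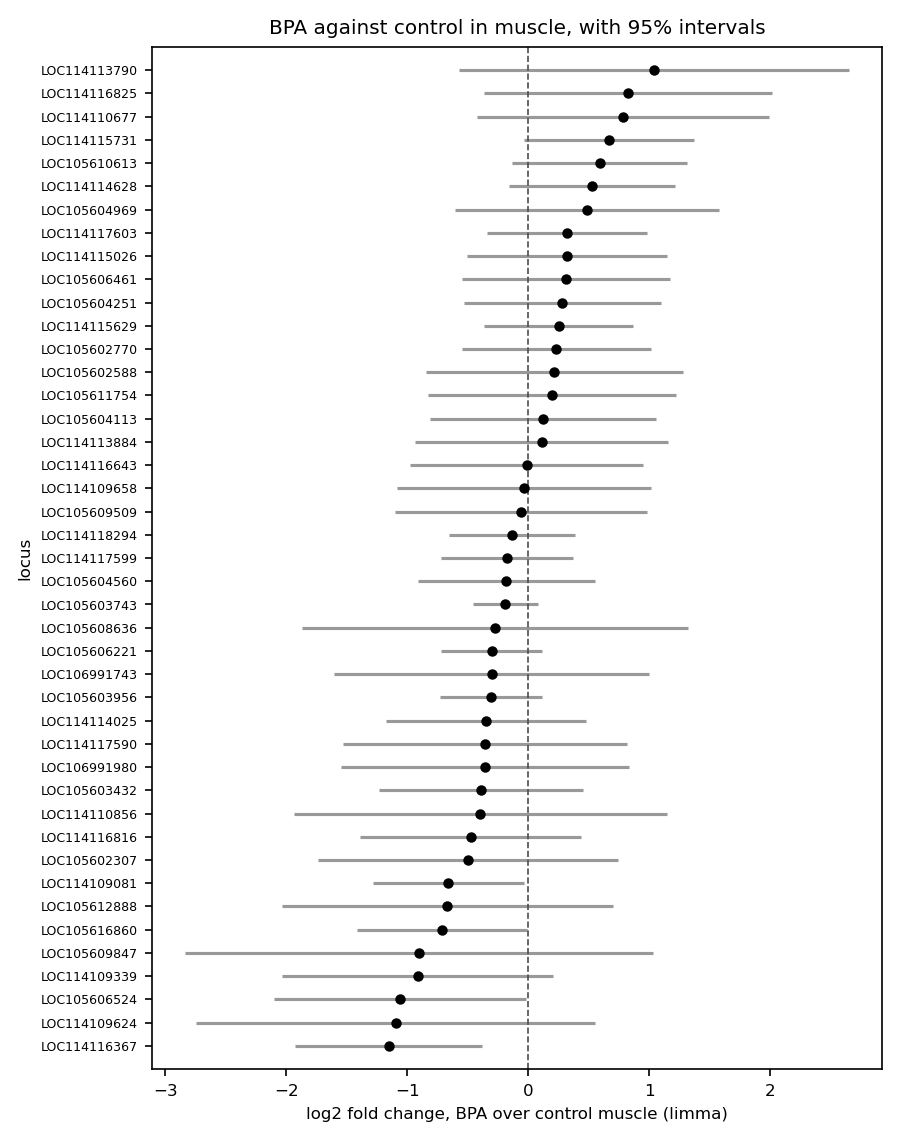
log2 fold change of BPA over control muscle for each of the 43 loci (limma; points, estimates; lines, 95% intervals; dashed line, no difference), sorted by estimate. The estimates run from 1.04 for LOC114113790 to -1.15 for LOC114116367, and none passed an adjusted p of 0.05.

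LOC114116367, a locus not in the RefSeq table, had the smallest p. Its normalized counts were 9.36, 3.70, 12.1 and 11.2 in BPA muscles 910, 918, 977 and 984, and 18.7, 16.4, 23.5 and 21.6 in control muscles 902, 908, 924 and 928. Every BPA muscle lay below every control muscle, which was so for no other of the 43 loci, and none lay wholly above; the 2 groups did not overlap in 11.3% of the 151 rows. The log2 fold change was -1.15 ± 0.35 SE, with a limma adjusted p of 0.101 (0.0658 to 0.658 over the alternatives), so the difference did not pass. The next 3 by p were also lower in BPA muscle. LOC114109081 had 11.1, 12.9, 8.51 and 10.4 in BPA muscles and 25.4, 15.3, 12.4 and 18.7 in control muscles, a log2 fold change of -0.66 ± 0.28 SE. LOC105616860 had 5.10, 6.16, 9.93 and 4.48 in BPA muscles and 12.01, 13.1, 8.29 and 10.1 in control muscles, with -0.71 ± 0.32. LOC105606524 had 5.95, 2.47, 3.55 and 0.746 in BPA muscles and 9.34, 5.46, 5.53 and 7.19 in control muscles, with -1.06 ± 0.47. In all 3 the groups overlapped, and the limma adjusted p was 0.284 for each.

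For the abundant loci the intervals say how large a difference the data leave room for. LOC105603743 had a log2 fold change of -0.19 ± 0.12 SE (95% interval -0.46 to 0.08, limma adjusted p = 0.502). LOC105609509 had -0.06 ± 0.47 (limma adjusted p = 0.951). LOC105606221 had -0.30 ± 0.19 and SMCO4 (LOC105603956) -0.31 ± 0.19, with limma adjusted p of 0.494 and 0.492. LOC114113790 had the highest estimate, 1.04 ± 0.73 (-0.57 to 2.65, limma adjusted p = 0.502), and passed in 1 alternative, the fit with no filter on low values (adjusted p = 0.0352). The standard error ran from 0.12 to 0.88 with a median of 0.42. For 9 of the 43 loci the whole 95% interval lay within 1 log2 unit of no difference, and for the other 34 it reached a doubling or a halving. LOC114110677, singled out after its values were seen, had 14.5, 8.63, 8.51 and 1.49 in BPA muscles and 5.34, 3.28, 2.76 and 2.87 in control muscles. Its first 3 BPA values lay above every control and that of 984 below every control. Its log2 fold change was 0.79 ± 0.55 with all libraries (limma adjusted p = 0.502) and 1.33 ± 0.37 without BPA muscle 984 (limma adjusted p = 0.0658).

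In liver, only 7 of the 43 loci reached the mean of 5 that the test required, and the other 36 are given as values. The control livers held fewer lncRNA reads than the BPA livers, with no overlap (18344 to 45323 against 102095 to 284321). As in muscle, depth and exposure cannot be told apart there. The control livers also held more small nuclear RNA (snRNA) reads than the BPA livers, with no overlap (29981 to 58486 against 877 to 3865). Exposure cannot be told apart from that difference in liver either, and its part was not tested. One of the 7 loci, LOC105606221 at GNAS, was called higher in BPA livers. Of all 124 rows tested in liver, 35.5% were called and 16.1% were called higher. LOC105606221 had 95.6, 71.2, 64.96 and 75.9 normalized counts in BPA livers 910, 918, 977 and 984, and 6.26, 27.7, 46.5 and 23.3 in control livers 902, 908, 924 and 928. These came from 298, 90, 96 and 90 reads in BPA livers and 4, 19, 36 and 14 reads in control livers. Every BPA liver lay above every control liver. The means were 76.9 ± 13.3 in BPA livers and 26.0 ± 16.5 in control livers (SD, n = 4 each), and the log2 fold change was 1.80 ± 0.56 SE (95% interval 0.59 to 3.01, limma adjusted p = 0.0233, and 0.0024 to 0.215 over the alternatives). The call was lost without BPA liver 910 (1.69, limma adjusted p = 0.0578) and without control liver 928 (1.84, limma adjusted p = 0.0531), and without control liver 928 the table held 27 calls, against 44 with all libraries. It was also lost with reads thinned to the shallowest liver (1.18, limma adjusted p = 0.0924), with no filter on low values (1.80, limma adjusted p = 0.0866) and with the size factors of the microRNA table (0.81, limma adjusted p = 0.215).

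**Figure D5:**
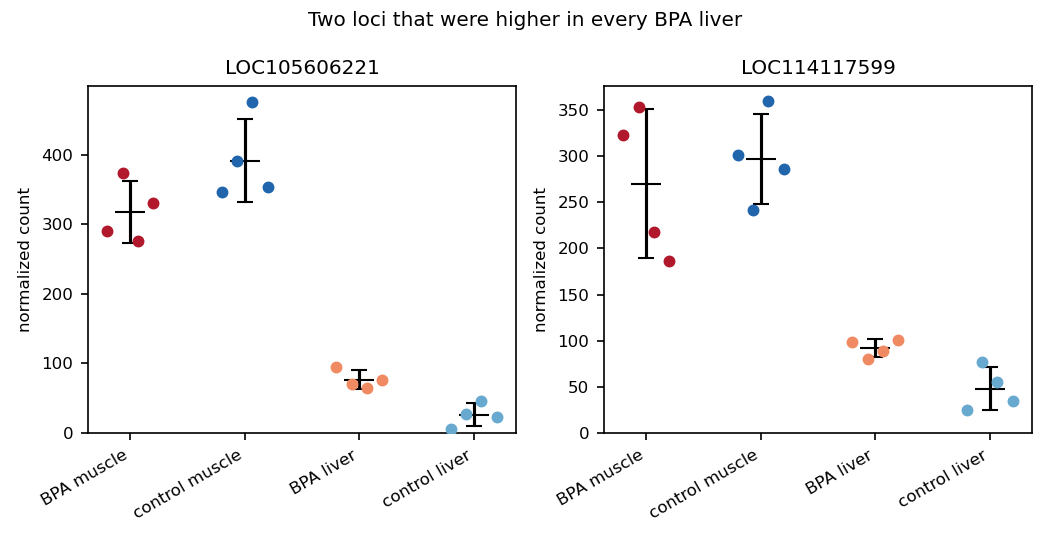
Normalized counts of LOC105606221 and LOC114117599 in BPA muscle, control muscle, BPA liver and control liver (points, 1 per animal; bars, mean ± SD, n = 4). In both loci the muscle groups overlap and every BPA liver lies above every control liver.

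LOC114117599 was the second of the 7 whose BPA livers all lay above the control livers; the groups did not overlap in 41.1% of all rows tested in liver. It had 99.2, 79.9, 89.3 and 100.4 in BPA livers and 25.0, 77.2, 55.6 and 35.0 in control livers, a log2 fold change of 1.04 ± 0.46 SE that did not pass (limma adjusted p = 0.0992). Both loci were among those with an unadjusted p under 0.05, which were 2 of the 7 and 45.2% of all rows. The other 5 had wide intervals. LOC105609509 had -0.62 ± 0.58 SE and LOC105612888 -0.53 ± 0.54, with limma adjusted p of 0.439 and 0.478. With microRNA size factors LOC105609509 was the 1 locus called, lower in BPA livers (-1.64, limma adjusted p = 0.0458). LOC114113790, with 10.9, 46.7, 42.0 and 64.9 in BPA livers and 6.26, 87.3, 42.7 and 15.0 in control livers, had 0.46 ± 0.76 (limma adjusted p = 0.651). SMCO4 (LOC105603956) had -0.35 ± 0.90 and LOC105603743 0.67 ± 1.16, with limma adjusted p of 0.805 and 0.660.

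A further 2 loci, of 34 with a liver read that were too low to test, also had every BPA liver above every control liver. This was so for 1.47% of the 1766 such low rows of the table, and for 3.46% of the 722 that held 4 to 50 reads over the 8 livers, the range of these 2 loci. That range was set by the 2 loci themselves and held 26 of the 34. It was not tested whether the shares differ. LOC105603432 had 4.49, 5.54, 6.77 and 10.1 in BPA livers and 1.57, 1.46, 3.88 and 3.33 in control livers, from 7 to 14 reads in BPA livers and 1 to 3 reads in control livers. LOC114116825 had 1 read in each BPA liver and none in any control liver, which at these depths is not a detectable difference. In none of these 34 low loci did every BPA liver lie below every control liver, which was so for 1.3% of the low rows.

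Whether the BPA difference in muscle and in liver differed was tested over the 146 rows with a mean of at least 5 in the 16 libraries, which held 25 of the 43 loci. The same libraries were used. The limits of depth in both tissues, of snoRNA reads in muscle and of snRNA reads in liver therefore apply here too. LOC105606221 alone was called, in the direction of a lower BPA difference in muscle than in liver. Of all 146 rows, 28.8% were called and 11.6% were called in that direction. Its BPA difference was -0.30 in muscle and 1.80 in liver, so that muscle minus liver was -2.10 ± 0.61 SE (95% interval -3.38 to -0.82, limma adjusted p = 0.0188, and 3.49e-05 to 0.217 over the alternatives). The call was lost without animal 977 (-2.11, limma adjusted p = 0.0566), where the table held 20 calls, against 42 with all animals; without animal 928 it held 22. It was also lost with no filter on low values (-2.10, limma adjusted p = 0.217) and with microRNA size factors (-0.93, limma adjusted p = 0.184). In edgeR with TMM scaling the difference was -1.26 with an adjusted p of 0.0857, and there LOC114114628 was called in its place (2.68, adjusted p = 0.0496). DESeq2 called LOC105606221. LOC105603432 had -1.53 ± 0.58 and LOC114117599 -1.21 ± 0.51, which did not pass (limma adjusted p = 0.0550 and 0.0776). With these 3, 12% of the 25 loci had an unadjusted p under 0.05, against 41.1% of all 146 rows. The median over the 25 loci was -0.11 and that over all rows -0.17, with 11 of the loci positive and 14 negative.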

How the data were processed

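Per the labels' protocols, total RNA of 1 liver and 1 muscle piece per sheep was made into NEBNext small RNA libraries. Tools listed are STAR 2.6.0c, featureCounts 1.6.1 and cutadapt 3.2, per the submitters' processing notes; no source used here gives their roles, the build, the annotation or the tool used for normalization. The 4 deposited tables hold normalized counts, that is, a signal equal to reads over a size factor that the authors set for each library, per table and tissue. Every lncRNA value was a whole multiple of 1 step per library (tolerance 0.001), so whole reads were recovered for 100% of values. The sequenced totals are unknown.

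In R 4.3.3, limma 3.58.1 (mean-variance trend) was fitted to log2(value + 1) of rows with a mean of at least 5, two-sided, with Benjamini-Hochberg adjustment over the lncRNA table and a threshold of 0.05. Fold changes on this scale understate those of low loci. The contrasts were BPA minus control in muscle, in liver, and their difference. Muscle against liver chose the loci and was not tested. The summed share was described without a test. edgeR 4.0.16 and DESeq2 1.42.0 on the recovered read counts were alternatives, beside other pseudocounts, filters and size factors and the omission of single libraries. The fits were also run on simulated counts, with the same spread setting for every locus and no library differences beyond depth. Such counts cannot show how the fits perform on these libraries. The animal number pairs a liver with a muscle library; their deviations from the group means correlated by -0.27 to 0.22 across 146 loci. Counts of any 2 libraries of a group differed beyond sampling noise (lowest chi-square over its degrees of freedom, 4.56).

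Loci named with values are the 12 with the highest muscle mean, those called, those next to each threshold, those at annotated small RNA genes and the 4 with the smallest p in each tissue that did not pass. LOC105608636, LOC114110856, LOC114110677 and LOC114116825 fall outside this rule and were chosen after their values were seen. The loci and the lists were chosen with earlier results of these data known. The RefSeq table (ARS-UI_Ramb_v3.0) was used for names, classes and overlaps only, since the authors' build is not given, and no coordinates are printed.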

Additional observations from a re-analysis of the deposited data

Results flagged for a closer look

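In 45 groups of 4 libraries, 1 value per group was compared with its nearest neighbour by Dixon's criterion, and 3 values stood apart, where chance gives about 1 in 20 groups. LOC105603743 had 439 normalized counts in the liver of BPA animal 984, against 15.7 to 19.6 in the other BPA livers. LOC105609509 had 2375 in the muscle of BPA animal 977, against 483 to 586 in the other BPA muscles. LOC105612888 had 20.3 in the liver of control animal 902, against 8.73 to 10.3 in the other control livers.

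The BPA difference of LOC105606221 in muscle minus that in liver was -2.10 log2 units, with a limma adjusted p of 0.0188 for that difference. All 4 BPA livers lay above the 4 control livers, and the muscle groups overlapped.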

How the results depend on the processing

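Over 26 results, 506 alternative values were computed. Of these 450 kept their direction and their side of the threshold (for counts, stayed within 1.5 times), 9 fell short of the threshold, 14 newly passed it, 23 moved and 10 changed direction. Where no cause is named, the cause was not tested. In muscle, 1 of the 43 loci was called with no filter and 0 on leaving out any single library. In liver, the 44 calls over the table became 24 with a mean of at least 20 (fewer rows tested), 27 with thinned reads and 27 to 49 without single libraries. The 1 locus called became 0 with no filter, 3 with 1 size factor over the 4 tables, 2 with the library code range as a covariate, 0 with thinned reads and 0 to 1 without single libraries; with microRNA size factors it was LOC105609509 in place of LOC105606221. For muscle minus liver, the 42 calls over the table became 20 with no filter, 20 with thinned reads and 20 to 46 without single animals. The 1 locus called became 0 with no filter, 3 with a mean of at least 20, 0 with microRNA size factors, 4 with 1 size factor, 3 with DESeq2 and 0 to 3 without single animals; in edgeR with TMM it was LOC114114628 in place of LOC105606221. The animal as a replicate block left LOC105606221 called (-2.10, limma adjusted p = 0.0272) and changed no other call of a named locus.

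Directions turned for 2 loci that were not called. LOC114113790 in liver (0.46) was at -0.52 with microRNA size factors, -0.45 without livers 902 and 984, -0.29 with thinned reads and -0.15 to 1.05 without single libraries. LOC105603743 in liver (0.67) was at -0.32 with microRNA size factors, -0.78 with the code range and -0.47 to 1.56 without single libraries; for muscle minus liver (-0.86) it was at 0.31 with microRNA size factors and -1.78 to 0.19 without single animals. The set of 43 loci became 10 with a muscle mean of at least 20, 30 with a ratio of at least 8 and 38 to 45 without single libraries. Thinned reads, the code range and the fits without livers 902 and 984 were chosen after seeing the data. With 4 animals a group and 38 to 92 muscle reads behind each of the 20 lowest loci, counting error limits what muscle can show, and 36 loci were too low to test in liver.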
